A study of Mus musculus with 5 samples.

Results

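The L1 family and the contactins are neuronal cell adhesion molecules of the immunoglobulin superfamily. NEUROD2 binding was examined at the 10 genes that encode them in the mouse, the 4 genes of the L1 family (L1cam, Chl1, Nrcam and Nfasc) and the 6 contactins (Cntn1 to Cntn6), chosen by gene family. Each gene was taken with the span of its longest annotated transcript plus 50 kb on either side, called its locus here. Of 53833 regions obtained by merging the peaks of the 3 antibodies over the whole genome, 117 had their midpoint in these loci, and of 32261 regions with peaks of at least 2 antibodies, called shared regions, 69 did.

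The chromatin came from the cerebral cortex of BALB/c embryos at mid-gestation (E14.5), and was immunoprecipitated with 3 NEUROD2 antibodies, the mouse antibody ab1 and the rabbit antibodies ab2 and ab3, or with 1 of 2 control antibodies to GFP. Each antibody gave 1 library from embryos pooled over several litters, so all NEUROD2 libraries describe the same condition, and no contrast between conditions exists. For peak calling, the authors paired ab1 with the mouse GFP control and both ab2 and ab3 with the rabbit GFP control. A peak's score, as used throughout, is −log10 of its p-value multiplied by 10, and scores were not scaled between libraries. Genome-wide, ab1 yielded 51841 peaks with a median score of 149.24, ab2 yielded 35310 with a median of 127.135, and ab3 yielded 7470 with a median of 89.385. Read depth cannot be taken from peak lists, so intervals given for shares are 95% Wilson intervals that cover counting error only. Since whole tissue was used, weak binding in many cells and strong binding in few cells cannot be told apart, and the cell types present were not checked, as peak lists hold no expression.

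NEUROD2 is a basic helix-loop-helix transcription factor of young cortical projection neurons whose DNA element, the E-box, has the general form CANNTG. The proteins of the L1 family span the membrane, bind each other and other adhesion molecules between neighboring axons, and anchor to the spectrin skeleton through ankyrins. Contactins hang on the outer membrane by a lipid anchor, lack a cytoplasmic part, and signal together with partners such as contactin-associated proteins and receptor tyrosine phosphatases. In the developing cortex both families are known for roles in axon growth, bundling and guidance and in neuronal migration.

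The binding element that the study describes, an extended E-box, is the core CAGCTG, or the core CAGATG in either orientation (its complement being CATCTG), or else the core CATATG, each followed by G or T. This gives 8 heptamers, which were searched on both strands. The lines below give 27 bases around the heptamer nearest to the midpoint of the highest-scoring shared region of each gene, by the sum of its scores, or of a further high-scoring region where named. They are shown to give the letters of the motif within high-scoring regions of each gene. Capitals mark the heptamer, sequences read 5′ to 3′ on the strand given, and positions are on mm10. The reference is of another mouse strain than the BALB/c embryos.
Nfasc intron 24, also the highest of the Cntn2 locus (chr1:132591711-132591737, minus strand, 1 base from the midpoint): ccagttatatCAGATGTtgtcagcttt
Nfasc intron 2 (chr1:132650828-132650854, plus strand, 49 bases from the midpoint): ctgtcccaggCAGATGGaataggtgcc
Between Cntn2 and Nfasc (chr1:132558118-132558144, plus strand, 69 bases from the midpoint): acggggtgcaCAGCTGGgatggtctct
Nrcam start site (chr12:44329594-44329620, minus strand, 187 bases from the midpoint): agcccacgccCAGATGTgtccgtgggg
Nrcam intron 2 (chr12:44403531-44403557, minus strand, 112 bases from the midpoint): aaatgcatagCAGATGGctggctgttc
Chl1 intron 9 (chr6:103676899-103676925, minus strand, 35 bases from the midpoint): acgcagcagcCATCTGGaaggattttc
L1cam intron 2 (chrX:73868074-73868100, minus strand, 324 bases from the midpoint): gccctgctgcCAGATGGgctgggtgtg
Cntn1 downstream (chr15:92364321-92364347, plus strand, 9 bases from the midpoint): tcaaacagggCAGCTGTgccagatctc
Cntn3 intron 5 (chr6:102322894-102322920, minus strand, 47 bases from the midpoint): atcacatttaCATCTGTtctagtaata
Cntn4 intron 4 (chr6:106177727-106177753, minus strand, 9 bases from the midpoint): gcatgacactCATATGGagtaccatct
Cntn5 intron 1 (chr9:10667608-10667634, plus strand, 5 bases from the midpoint): atcttcagagCAGATGGgagaagatta
The highest-scoring Chl1 region held none of the 8 heptamers over its whole length, so the next highest region, which had all 3 antibodies and lay in intron 9, is shown in its place. Cntn6 had no shared region. In the L1cam line and both Nrcam lines the element lies more than 100 bases from the midpoint, thus outside the central 200 bp window used for the counts given further on.

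NEUROD2 bound at most of these genes, but very unevenly. A shared region lay in the locus of 9 of the 10 genes, all except Cntn6, against 67.6 percent of 21938 protein-coding genes under the same rule. All 3 antibodies had a common region at 6 of the 10 genes, namely L1cam, Chl1, Nrcam, Nfasc, Cntn2 and Cntn5, against 26.7 percent of protein-coding genes. These loci were long, with a median of 381.339 kb against 117.16 kb for all protein-coding genes, and a longer locus holds more regions. Therefore counts were also expressed per 100 kb of locus.

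Each antibody on its own gave a different number of bound genes. Peaks of ab1 lay in the loci of 10 genes, peaks of ab2 in those of 10 and peaks of ab3 in those of 6, a mean of 8.67 ± 2.31 (SD, n = 3 antibodies). The shares over all protein-coding genes were 77.5 percent for ab1, 70.2 percent for ab2 and 27.3 percent for ab3. The loci held 116 different ab1 peaks, 72 ab2 peaks and 20 ab3 peaks, which were 0.224%, 0.204% and 0.268% of all peaks of these antibodies. With ab1 or ab2 left out, 20 shared regions at 6 genes were found in place of 69 at 9, and with ab3 left out 69 at 9. The ab3 list was the shortest by far, so a missing ab3 peak does not show that ab3 failed to bind a site.

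**Figure D1:**
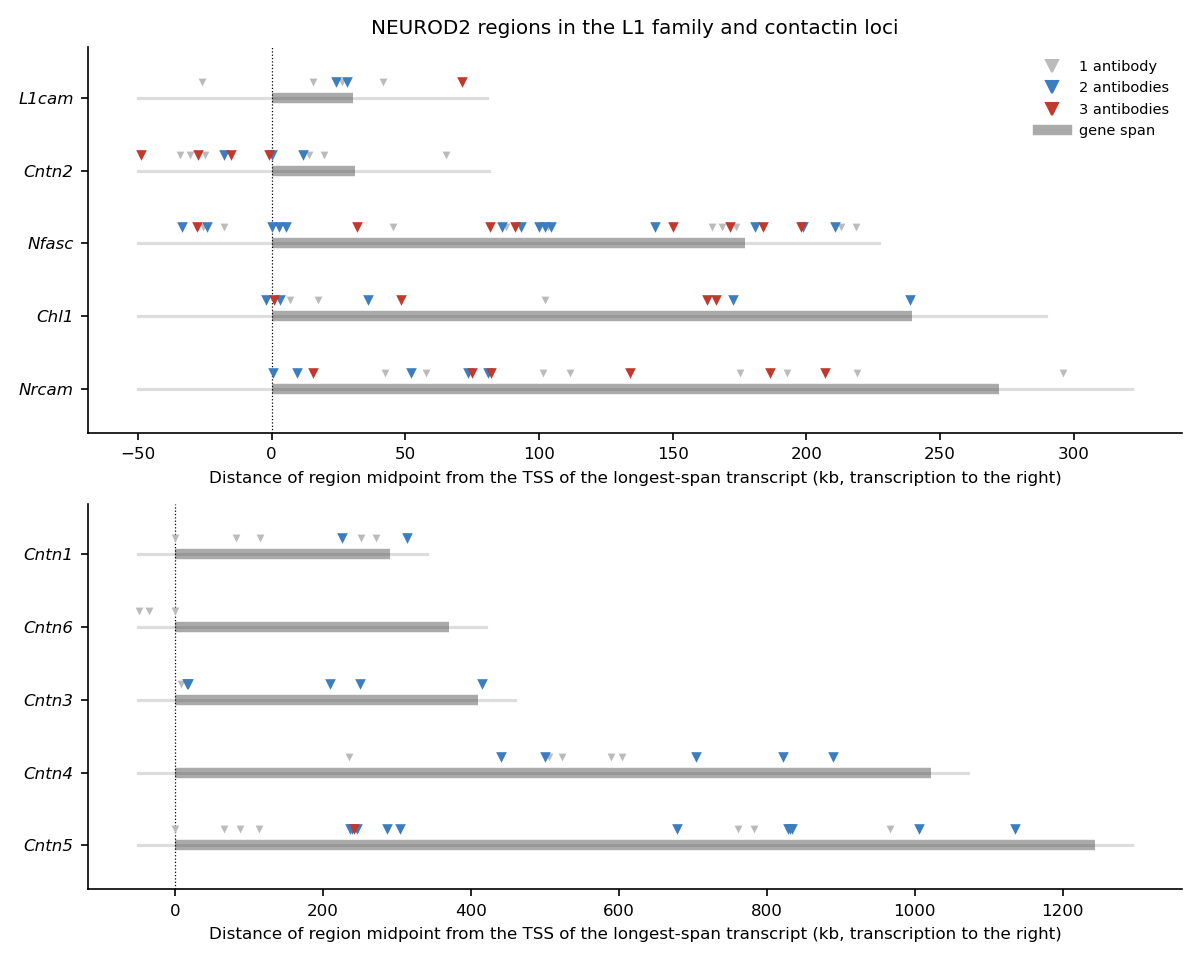
Map of merged NEUROD2 regions (triangles) along the 10 loci, by distance in kb of the region midpoint from the start site of the longest transcript, with transcription to the right. Dark bars are gene spans, thin bars the 50 kb flanks, and colors give the number of antibodies with a peak. The upper panel shows Nfasc with 22 shared regions and the lower panel the long contactin genes, among which Cntn6 has 0.

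Within the L1 family, Nfasc was bound most densely. Nfasc encodes neurofascin, which organizes the axon initial segment and the nodes of Ranvier. Its locus held 33 ab1 peaks, 22 ab2 peaks and 8 ab3 peaks. These merged into 22 shared regions, of which 8 had all 3 antibodies, or 7.94 shared regions per 100 kb. This density exceeded that of 99.2% of protein-coding genes. Of the 22 shared regions, 11 had the start of the longest Nfasc transcript as the nearest protein-coding start site, and the other 11 were nearer to that of Cntn2, the neighboring gene. Of these 11, however, 6 lay inside Nfasc and were nearer to the start of a shorter annotated Nfasc transcript than to Cntn2.

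High scores at Nfasc were far from the start site of its longest transcript, inside the gene and between it and Cntn2. A score of 3100 was given to 661 ab1 peaks of the genome and exceeded by 69, so it is close to the top of the scale, and regions at this value can be ordered only by ab2 and ab3. The region chr1:132590486-132592964 in intron 24 scored 3100 with ab1, 2771.39 with ab2 and 825.75 with ab3, and chr1:132649974-132651610 in intron 2 scored 3100, 2548.85 and 783.50. A second region in intron 2, chr1:132658925-132661150, scored 3100, 2090.77 and 388.87, and a pair of regions between the genes, described with Cntn2, also reached 3100. A region on coding exon 30, chr1:132568714-132572227, scored 3065.09 with ab1, 2051.06 with ab2 and 358.76 with ab3. By contrast, the region at the start site of the longest Nfasc transcript, chr1:132740815-132742225, was weak, with 150.48 for ab1, 80.51 for ab2 and no ab3 peak. Shorter annotated Nfasc transcripts start elsewhere. The intron 24 region lay 4.6 kb from the start of such a transcript. A region 0.3 kb from the start of another, chr1:132636800-132638029, scored 476.48 with ab1 and 234.78 with ab2 and had no ab3 peak. The high-scoring regions of the Nfasc locus were thus not at the start of its longest transcript.

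Nrcam encodes a guidance receptor that associates with neuropilin for semaphorin responses. Its locus held 19 ab1 peaks, 11 ab2 peaks and 6 ab3 peaks, which gave 11 shared regions, 6 of them with all 3 antibodies (2.96 per 100 kb, above 84.2% of protein-coding genes). All 11 lay inside the gene and had its start site as the nearest. The region at the start site, chr12:44328278-44330562, scored 2916.41 with ab1 and 869.72 with ab2 and lacked an ab3 peak. In intron 2, chr12:44402882-44404430 scored 1662.79 with ab1, 826.82 with ab2 and 113.88 with ab3. In intron 3, chr12:44514997-44515690 scored 1070.17, 529.95 and 70.32, and chr12:44462462-44463653 in the same intron scored 626.24, 248.59 and 50.09. Of the shared regions within 1 kb of the start of a longest transcript, the Nrcam start site region had the highest ab1 score, and ab3 called only more distal regions of Nrcam.

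Chl1 encodes the close homolog of L1, which directs migration and dendrite orientation of cortical projection neurons. Its locus held 13 ab1 peaks, 9 ab2 peaks and 4 ab3 peaks, and 9 shared regions, 4 of them with all 3 antibodies (2.65 per 100 kb, above 78.6% of protein-coding genes). The region covering the start site, chr6:103510259-103512724, scored 697.38 with ab1, 463.69 with ab2 and 93.39 with ab3. It was the only region of all 3 antibodies within 1 kb of the start of the longest transcript among the 10 genes. The highest score sum lay 3.3 kb inside the gene, at chr6:103513253-103514531, with 1162.46 for ab1 and 428.60 for ab2. In intron 9, chr6:103676505-103677249 scored 855.33 with ab1, 399.76 with ab2 and 88.39 with ab3, the highest sum of the Chl1 regions of all 3 antibodies. In intron 8, chr6:103672958-103673644 scored 596.39, 358.38 and 69.88. Chl1 regions lay close together at the start of the gene, where 3 of them fell within 5.59 kb, and again in introns 8 and 9.

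L1cam, the founding member, encodes an adhesion molecule whose mutation in humans impairs corpus callosum formation. The highest L1cam score with each antibody was the lowest such value of the family. The L1cam locus held 7 ab1 peaks, 3 ab2 peaks and 1 ab3 peak, which merged into 3 shared regions (2.30 per 100 kb, above 74.5% of protein-coding genes). The highest, chrX:73867143-73868383, scored 224.71 with ab1 and 289.30 with ab2. A second intronic region, chrX:73871906-73872569, scored 98.32 with ab1 and 66.07 with ab2. The only region of all 3 antibodies, chrX:73824221-73825359, scored 125.92, 66.10 and 55.06, and lay within Pdzd4, 40.9 kb beyond the L1cam span. The longest annotated L1cam transcript is noncoding, and the start of the longest coding transcript lies 15.3 kb further downstream, where ab1 alone had a weak peak that scored 53.49. Measured from this coding start, the intronic regions lay at 13.1 and 8.6 kb, nearer than the start site of the neighbor Avpr2 at 24.3 and 19.9 kb. Measured from the start of the longest transcript, at 28.3 and 23.9 kb, they were nearer to Avpr2.

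Contactins were bound more sparsely than the L1 family, with the exception of Cntn2. The 4 L1 family loci held 45 shared regions over 1118.99 kb (4.02 per 100 kb) and the 6 contactin loci 31 over 3967.64 kb (0.781 per 100 kb), and 7 regions were counted in both since the Nfasc and Cntn2 loci overlap. Without Nfasc the L1 family had 2.73 per 100 kb, and without Cntn2 the contactins had 0.626. The L1 family genes ranged from 2.30 to 7.94 per 100 kb. Cntn2, at 5.34, lay within this range, and the 5 other contactins lay at or under 0.981. Locus length split the genes in the same way. L1 family loci were at most 371.875 kb, the Cntn2 locus 131.158 kb, and those of the 5 other contactins at least 390.803 kb. Family and locus length cannot be told apart here. Regions of all 3 antibodies made up 19 of 45 shared regions (42.2%, interval 29.0 to 56.7) in L1 family loci and 5 of 31 (16.1%, interval 7.09 to 32.6) in contactin loci, and 4 of the 5 were in the Cntn2 locus. Over all loci 20 of the 69 different shared regions had all 3 antibodies (29.0%, interval 19.6 to 40.6), against 22.2 percent of all shared regions. With only 1 library per antibody the difference between the families was not tested.

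Cntn2 encodes the contactin known from early corticofugal axons. Its short locus held 14 ab1 peaks, 7 ab2 peaks and 4 ab3 peaks, and 7 shared regions, 4 of them with all 3 antibodies (5.34 per 100 kb, above 96.1% of protein-coding genes). All 7 had the Cntn2 start site as the nearest when only the longest transcript of each gene was used, but 2 of them lay inside Nfasc, nearer to the start of a shorter Nfasc transcript. The region over the start site and the untranslated exon 1, chr1:132542190-132543494, scored 938.51 with ab1 and 432.36 with ab2. Next to it, just over 1 kb upstream of this start and less than 1 kb from the start of another annotated Cntn2 transcript, chr1:132543503-132544431 scored 3100 with ab1, 1454.22 with ab2 and 268.81 with ab3. Further upstream, chr1:132556807-132559593 scored 3100, 2712.75 and 497.78. Binding by all 3 antibodies at Cntn2 was thus upstream of the gene, toward Nfasc.

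Cntn5, which encodes a contactin of auditory and other sensory circuits, had the most shared regions of the other contactins, in the longest locus. Its 1343.84 kb held 20 ab1 peaks, 12 ab2 peaks and 1 ab3 peak, and 12 shared regions (0.893 per 100 kb, above 46.0% of protein-coding genes). The highest, chr9:10667202-10668050 in intron 1, scored 420.45 with ab1 and 307.25 with ab2. The only region of all 3 antibodies, chr9:10662955-10663617, lay in the same intron and scored 313.01 with ab1, 246.41 with ab2 and 67.88 with ab3. Both belonged to a group of 4 shared regions within 9.27 kb, more than 200 kb from the start site. At the start site itself only ab1 had a peak, with a score of 152.80.

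Cntn3 and Cntn4 encode neuronal contactins of which the latter guides olfactory axons and binds the amyloid precursor protein. The Cntn3 locus held 6 ab1 peaks, 5 ab2 peaks and 0 ab3 peaks and gave 5 shared regions (0.981 per 100 kb, above 52.7% of protein-coding genes). Its highest region by summed score, chr6:102322303-102323417 in intron 5, scored 280.64 with ab1 and 208.22 with ab2. With ab1 alone chr6:102555082-102555808 in intron 1 was higher, at 411.41, with 71.61 for ab2. The Cntn4 locus held 10 ab1 peaks, 5 ab2 peaks and 0 ab3 peaks and likewise gave 5 shared regions (0.446 per 100 kb, above 33.5%). Its highest region by summed score, chr6:106177370-106178127 in intron 4, scored 309.32 with ab1 and 248.34 with ab2. A second Cntn4 region, chr6:106118460-106119331, with 375.11 for ab1 and 108.15 for ab2, fell on the start of a shorter annotated Cntn4 transcript, 441.2 kb into the longest one. Neither gene had a shared region within 10 kb of the start of its longest transcript.

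Cntn1, which forms the paranodal complex with contactin-associated protein, held 5 ab1 peaks, 4 ab2 peaks and 0 ab3 peaks. Just 2 shared regions resulted (0.512 per 100 kb, above 34.2% of protein-coding genes). They were chr15:92276799-92277349 in intron 15, with 134.43 for ab1 and 145.49 for ab2, and chr15:92363919-92364767 downstream of the gene, with 196.16 and 272.11. Both were nearer to the start site of Pdzrn4 than to the start of the longest Cntn1 transcript. The intron 15 region lay 115.7 kb from the start of a shorter annotated Cntn1 transcript and 119.8 kb from that of Pdzrn4. At the Cntn1 start site only ab2 had a peak, scoring 64.68.

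Cntn6 had 2 peaks of ab1 and 1 of ab2 in 470.485 kb and no shared region, as had 32.4% of protein-coding genes. The ab2 peak lay at its start site and scored 60.65. The ab1 peaks lay 49.0 kb and 35.2 kb upstream and scored 65.34 and 59.80. All 3 were close to the lowest score in the lists, 50.

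**Figure D2:**
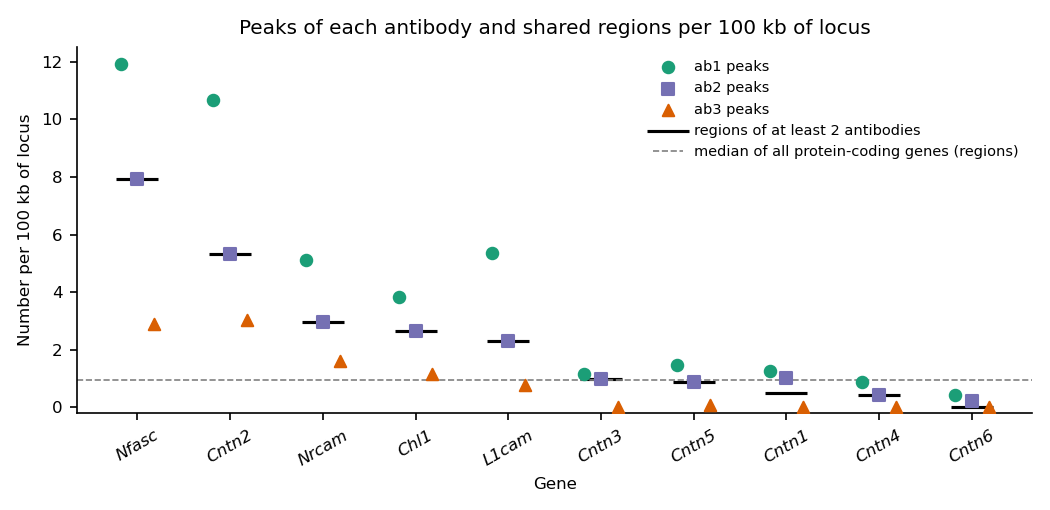
Number of peaks per 100 kb of locus for each antibody (points) and of shared regions (bars) at the 10 genes, ordered by shared regions, with the median of all protein-coding genes as a dashed line (0.950). Nfasc and Cntn2 are highest with all 3 antibodies, and ab3 points for Cntn1, Cntn3, Cntn4 and Cntn6 sit at 0.

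Nfasc and Cntn2 came first with each antibody, although the levels differed. Nfasc had 11.9 peaks per 100 kb with ab1, 7.94 with ab2 and 2.89 with ab3, and Cntn2 had 10.7, 5.34 and 3.05, so ab3 reversed their order. Their loci overlap, and all 7 Cntn2 shared regions, including the 4 with ab3, were also counted at Nfasc. The places of these neighbors are thus not separate observations. For ab1, L1cam (5.37) stood above Nrcam (5.11) and Chl1 (3.83), whereas for ab2 the order was Nrcam (2.96), Chl1 (2.65) and L1cam (2.30), and for ab3 it was Nrcam (1.61), Chl1 (1.18) and L1cam (0.767). Nrcam exceeded Chl1 with each antibody, and the place of L1cam changed with ab1. The median over the 10 genes was 1.64 shared regions per 100 kb, against 0.950 over all protein-coding genes, whose upper quartile was 2.35. Of the 10 genes, 6 lay above the median of protein-coding genes and 4 below. Without the Nfasc and Cntn2 loci the median was 0.937, on the other side of that of all genes. With only regions nearest to the gene's own start site it was 0.825 over the 10 genes, and the all-gene median under that rule was not computed.

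**Figure D3:**
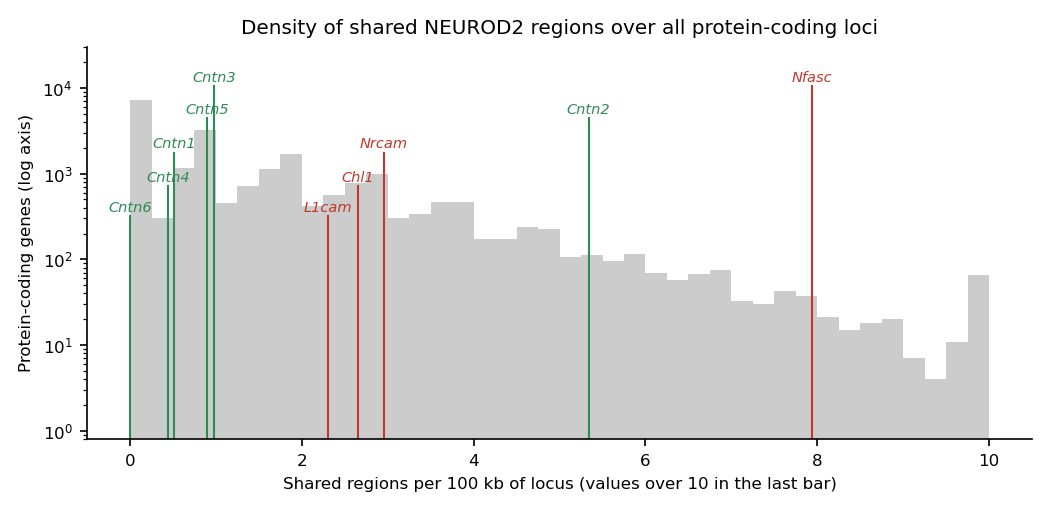
Distribution of shared regions per 100 kb of locus over 21938 protein-coding genes (bars, log axis), with the L1 family (red) and the contactins (green) marked. The L1 family lies between 2.30 and 7.94 and the contactins other than Cntn2 at or under 0.981.

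Nfasc and Cntn2 are neighbors on chromosome 1, with a gap of 21.75 kb between them. The stretch of 329.976 kb formed by both loci held 22 shared regions, 8 of them with all 3 antibodies, or 6.67 per 100 kb, and 3 of the 22 fell between the genes. An ab1 score of at least 3100 was reached by 5 of the 69 shared regions of the 10 genes (7.25%), against 2.25 percent of all shared regions, and all 5 lay in this stretch. With ab3 these 5 regions scored at least 268.81. The largest group comprised 7 shared regions within 22.6 kb in introns 2 to 4 of Nfasc. Which of the genes each region may act on was not tested.

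Cntn3, Chl1, Cntn6 and Cntn4 lie in this order on chromosome 6, in a stretch of 4.636 Mb that holds 5 protein-coding start sites. Of the 33 shared regions in the stretch, 19 fell in the loci, with 9 at Chl1, 5 at Cntn3, 5 at Cntn4 and 0 at Cntn6. The other 14 fell between the loci, 7 between Cntn3 and Chl1, 4 between Chl1 and Cntn6 and 3 between Cntn6 and Cntn4. Among these neighbors only Chl1 had regions of all 3 antibodies.

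A shared region within 1 kb of the start of the longest transcript was found at 4 of the 10 genes, Chl1, Nrcam, Nfasc and Cntn2, against 20.8 percent of protein-coding genes. At Cntn1, Cntn5 and Cntn6 a single antibody had a peak there, and at L1cam, Cntn3 and Cntn4 none had. With the starts of all annotated transcripts 5 genes had a shared region within 1 kb, Cntn4 being added. The share of protein-coding genes under this wider rule was not computed, since the 20.8 percent holds for 1 start per gene. The coding start of L1cam had the ab1 peak given above. Most shared regions lay further away, as across the genome, where 12.7 percent of shared regions were within 1 kb of a protein-coding start site. In sum over the loci, 76 shared regions were counted, the 7 of the Nfasc and Cntn2 overlap entering for each gene. Of these, 59 (77.6%, interval 67.1 to 85.5) lay inside the span of the gene, which made up 80.3% of the summed locus length, so their share was close to that of the length. Introns held 57 (75.0%, interval 64.2 to 83.4) and took 79.3% of the length, 2 lay on exons, 9 upstream and 8 downstream. Intron 1 held 19 of the 57. Its length ranged from 8.905 kb at Cntn2 to 263.662 kb at Cntn5, and its part of the intron length was not set against this count. A shared region inside the span was found at 9 of the 10 genes, against 31.5 percent of protein-coding genes, whose spans are mostly shorter.

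An extended E-box was present in the central 200 bp of most shared regions. Of the 69 different shared regions, 45 held it (65.2%, interval 53.4 to 75.4), against 59.6 percent of all shared regions. In windows of the same size placed 1000 bp beyond either end of the regions, 14 of 69 held it on each side (20.3%, interval 12.5 to 31.2), against 22.3 percent of all shared regions on each side. The motif was thus more frequent at the center of the regions than beside them, as it was across the genome. Taken per antibody over its own peaks in the loci, the share was 63.8% (ab1), 61.1% (ab2) and 60.0% (ab3), with a mean of 61.6% ± 1.95 (SD, n = 3 antibodies). The loose E-box CANNTG was found in 57 of 69 (82.6%), against 83.7 percent.

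The core CAGATG, which reads CATCTG on the other strand, was the most frequent and occurred in 31 of 69 regions (44.9%), against 39.1 percent of all shared regions. CAGCTG occurred in 16 (23.2%), against 23.4 percent, and CATATG in 9 (13.0%), against 10.6 percent. Of the 69 regions, 26 held 1 site, 17 held 2 and 2 held 3, and over all shared regions 37.5%, 17.1% and 3.94% did. Regions with all 3 antibodies held the element in 13 of 20 cases (65.0%) and regions with 2 antibodies in 32 of 49 (65.3%), against 63.4 and 58.6 percent across the genome. Between the 2 kinds of region at these genes the share differed by less than its counting error.

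Of the 4 shared regions within 1 kb of the start of a longest transcript, 1 held the element in its center, the Nfasc region (interval 4.56% to 69.9%), and of the 65 others 44 did (67.7%, interval 55.6 to 77.8), so the intervals overlapped. The others include the L1cam locus region 0.2 kb from the Pdzd4 start site, which held the element. Across the genome the shares were 20.8 percent within 1 kb of any protein-coding start site and 65.3 percent beyond. By family, 23 of 38 regions in L1 family loci alone held the element (60.5%), 19 of 24 in contactin loci alone (79.2%) and 3 of the 7 in both the Nfasc and Cntn2 loci (42.9%). Their intervals overlapped, from 44.7 to 74.4, from 59.5 to 90.8 and from 15.8 to 75.0.

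**Figure D4:**
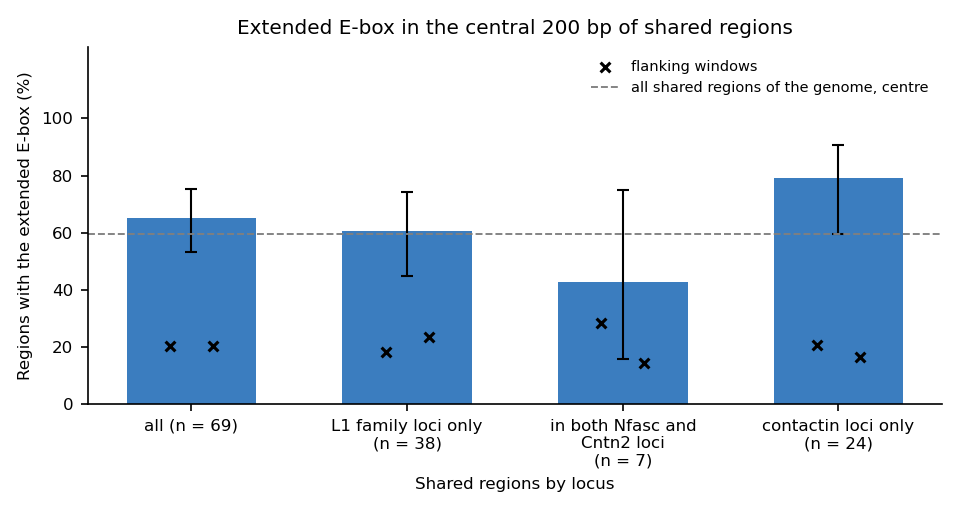
Percent of shared regions with an extended E-box in the central 200 bp (bars, with 95% Wilson intervals for counting error) and in flanking windows of the same size (crosses, left and right), with the share over all shared regions as a dashed line (59.6). The bars range from 42.9% for the 7 regions in both Nfasc and Cntn2 loci to 79.2% for contactin loci alone.

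In the RefSeq promoter windows of the 10 genes (GRCm38.p6, 250 bases before to 50 after the start), both Cntn4 windows, 1 of 2 Nfasc windows and the Cntn6 window held an extended E-box, against 26.3% of all 32851 windows. The windows of the other 7 genes held none of the 8 heptamers. A match describes the letters in the window only, and Cntn6 carried it without a shared region.

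Scores of the antibodies rose and fell together over the regions. Over the 69 shared regions the log10 scores of ab1 and ab2 correlated with r = 0.897 and rho = 0.860, and over the 20 regions of all 3 antibodies ab1 and ab3 with r = 0.850 and ab2 and ab3 with r = 0.909. All shared regions of the genome gave 0.885, 0.683 and 0.769. These are descriptions across regions, which share libraries and, for ab2 and ab3, the control, and ab1 scores pile up at 3100. Regions of all 3 antibodies had a median ab1 score of 834.01 and regions of 2 antibodies 224.71, with ab2 medians of 496.82 and 142.93.

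**Figure D5:**
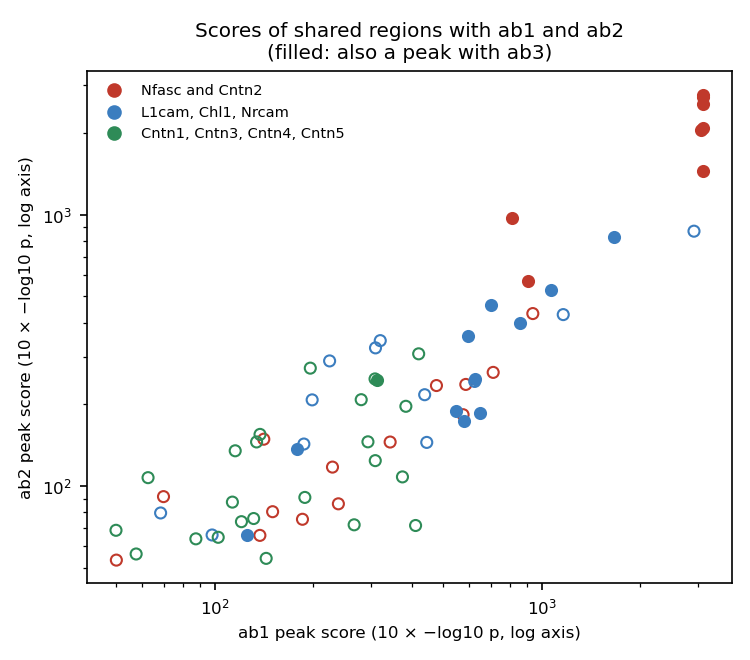
Scores with ab1 and ab2 of the 69 shared regions (both axes on a log scale), colored by locus, with filled points for regions that ab3 called as well. The regions with ab1 scores of 3100 are all from the Nfasc and Cntn2 loci.

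Shared regions of the 10 genes had a median ab1 score of 310.34, an ab2 score of 183.31 and, where called, an ab3 score of 90.89, against 277.685, 140.25 and 90.46 over all shared regions. Their median width was 847 bp, against 865 bp, and their GC content 47.5%, against 51.0%. All shared regions with 2 antibodies had ab1 and ab2. The 48 regions with a single antibody (41.0% of 117, against 40.1 percent of all regions) came from ab1 in 45 cases, from ab2 in 3 and from ab3 in 0, with a highest score of 230.59.

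Most known binding partners of these proteins had a shared region in the locus, as had most protein-coding genes. Of 27 partner genes, 22 had a shared region in the locus (81.5%, against the 67.6 percent of all protein-coding genes) and 15 had a region of all 3 antibodies (55.6%, against 26.7 percent). Their loci were long as well, with a median of 267.774 kb, and their median density was 1.77 per 100 kb, against 0.950 over all protein-coding genes. The highest counts were 23 at Fyn, the kinase that signals below several of these adhesion molecules (7.78 per 100 kb), 21 at Ank3, the ankyrin of the axon initial segment (2.90), and 21 at Cntnap2, which pairs with contactin-2 (0.896). All 3 ankyrins, all 3 ezrin-radixin-moesin proteins that link the L1 tail to actin, all 3 receptor tyrosine phosphatases, both neuropilins, all 3 matrix ligands and all 3 members of the amyloid precursor family had a shared region. Some of these had only 1, with densities from 0.486 to 0.616 per 100 kb, under the 0.950 of all protein-coding genes. Among contactin-associated proteins 3 of 7 did, while Cntnap3, Cntnap5a, Cntnap5b and Cntnap5c had none, and of both proteases only Adam10 had none. At the start site, 3 of the 27 (11.1%, against 20.8 percent) had a shared region, Ptprz1, Nrp2 and Fyn.

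The 50 kb flank set which regions were counted. Just inside the limit lay the highest region of the Cntn2 locus, 48.8 kb upstream of the gene. Just outside lay a Cntn1 region at 55.1 kb with scores of 214.42 for ab1 and 159.06 for ab2, an Nrcam region at 59.7 kb with 318.57 and 229.32, and a Cntn6 region at 69.0 kb with 448.02 and 65.36. The result that Cntn6 lacked shared regions thus held for 50 kb, and with 100 kb its locus held 3.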

How the data were processed

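Per the labels and the methods, the authors mapped single-end reads to mm10 with Bowtie, removed duplicates and reads with several positions, and called peaks with MACS for each antibody against GFP chromatin of the same host. The deposited files hold peak positions and a score, which is 10 times −log10 of the p-value as written by the authors' peak caller, lowest 50. The GFP libraries entered only as these controls. Read depth was not analysed here.

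Peaks overlapping by at least 1 bp were merged with Python 3.11.15, pandas 2.3.3 and pysam 0.24.0, and regions of at least 2 antibodies were called shared. Midpoints were placed on GENCODE M21 transcripts (GRCm38), using the longest span per gene. Motifs were searched in the central 200 bp. Scripts were tested on simulated data. There was no test, as each antibody has 1 library of 1 condition. All 10 genes were named, with per gene the highest region by summed score, those within 1 kb of the start site and the highest ones of all 3 antibodies, and of the partners the 3 with most regions and those without. The genes and lists were chosen with earlier results of these data known. Alternatives changed the score minimum, overlap, antibodies, flank, position, gene assignment, transcripts and motif window.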

Additional observations from a re-analysis of the deposited data

How the results depend on the processing

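No paired analysis was possible because the result comes from no test and the GFP libraries have no peak list of their own. Requiring all 3 antibodies left 20 shared regions at 6 genes, 1 gene with a region at its start site, a median density of 0.421 per 100 kb, 66.7% of regions in gene spans and 62.5% in introns. Leaving out ab1 or ab2 gave 20 shared regions each, while leaving out ab3 changed none of these counts. Over the 3 libraries left out in turn, shared regions ranged from 20 to 69, genes with a region from 6 to 9, genes with a start site region from 1 to 4, the median density from 0.421 to 1.64, the E-box share from 65.0% to 70.0%, the share in spans from 66.7% to 77.6% and that in introns from 58.3% to 75.0%. With peaks of a score of at least 100, regions of all 3 antibodies made up 16.7% in place of 29.0%, the E-box share was 60.4% and the median density 0.639. All genes had a median of 0.950 at any score, but theirs at this minimum was not computed, so these densities cannot be compared. A 10 kb flank gave E-box, span and intron shares of 62.5%, 92.2% and 89.1%, and a 100 kb flank 67.9%, 62.1% and 60.0%. With 100 kb all 10 genes had a region, but the share of all protein-coding genes with this flank was not computed. Windows of 100 and 400 bp gave E-box shares of 46.4% and 73.9%, and the loose motif 82.6%. Keeping only regions nearest to the gene's own start site left 54 regions at 7 genes, without Cntn1 and L1cam. The E-box share was then 61.1% and the median density 0.825 per 100 kb. This selection rests on 1 start per gene. The intronic L1cam regions are nearer to its coding start than to Avpr2. Of the 11 Nfasc regions left out, 6 are nearer to a shorter Nfasc transcript than to Cntn2. The Cntn1 region in intron 15, the Cntn4 regions left out and some of those of Cntn5 are likewise nearer to a shorter transcript of their own gene. Without the Nfasc and Cntn2 loci, an alternative chosen after seeing the data, 68.1% held the E-box and 91.5% lay in spans, all of these in introns. Of 100 recomputed counts for single genes, 60 stayed within 1.5 times the reported count and 40 did not. Having 1 library per antibody limits all values, and read depth was not used here.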

Other observations

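Beyond the 50 kb flanks, some regions near Cntn2 and Cntn5 scored higher than most of those inside. A region 80.2 kb downstream of Cntn2, chr1:132430652-132432443, scored 3100 with ab1, 2329.26 with ab2 and 461.47 with ab3. A region 77.6 kb from Cntn5, chr9:9582819-9583701, scored 1044.36 with ab1 and 551.56 with ab2, above every shared region inside the Cntn5 locus. Regions at 67.9 and 71.9 kb from Cntn6 scored 72.35 and 186.44 with ab1 and 80.77 and 138.04 with ab2.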
